A study of Rattus norvegicus with 6 samples.

Results

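The tumour necrosis factor (TNF) superfamily comprises trimeric cytokines, most of them made as membrane proteins and in part shed, and the receptors that bind them. The members described here are the genes whose symbol in the deposited table is Tnf or begins with Tnfsf (ligands) or Tnfrsf (receptors) followed by a number. The rule found 29 of the 32623 genes in the table, 12 ligands and 17 receptors, each with 1 row. Superfamily genes that go by other symbols were kept as a separate list and are given further on.

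The libraries come from primary ventricular myocardial cells of Sprague-Dawley rats at postnatal day 1 to 3, from 1 isolate that pooled several animals. Cells received a control small interfering RNA (siNC, 3 libraries) or one against Mettl3 (siMETTL3, 3 libraries) for 24 h, and all 6 cultures then received lipopolysaccharide (LPS), the endotoxin of Gram-negative bacteria, for 6 h. Mettl3 encodes the methyltransferase that writes N6-methyladenosine on messenger RNA. No culture without LPS was analysed here, so levels below are levels under LPS and none is a response to it. Because the replicates share 1 pooled isolate, p-values measure the spread between these cultures, which may be technical.

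Receptors of the family fall into those with a cytoplasmic death domain, which recruit the adaptors TRADD or FADD, those that bind TRAF adaptors directly and drive NF-kB, and decoys that bind ligand without signalling. TNF is produced chiefly by macrophages after LPS, and cardiomyocytes are known to carry both TNF receptors. Tnfrsf1a encodes the receptor for soluble TNF and has a death domain, whereas Tnfrsf1b encodes the receptor that responds best to membrane TNF and binds TRAF2.

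The total count was 71202469 to 76668751 per library, and Mettl3 measured 15.4 to 18.2 FPKM in siNC and 9.90 to 10.6 FPKM in siMETTL3. FPKM is a fragment count corrected for the size of the library and the length of the transcript. Cardiomyocyte markers summed to 23570 to 27520 FPKM in siNC and 19820 to 23300 FPKM in siMETTL3, and 0 of 9 passed the limma test described below (2 fell by edgeR). Of the markers tested, 5 of 8 for fibroblasts, 5 of 6 for macrophages and 4 of 7 for smooth muscle and pericytes fell and 0 rose, where 4.4% of all tested genes fell. With 1 library left out the fibroblast count was 4 in each fit. The macrophage count was 1 without siNC replicate 1 or siMETTL3 replicate 1, 3 without siMETTL3 replicate 2, and 4 or 5 otherwise. For smooth muscle and pericytes it was 1 without siNC replicate 1 or siMETTL3 replicate 1, 2 without siMETTL3 replicate 3, and 3 or 4 otherwise. Smooth muscle and pericyte markers summed to 3718 to 4218 FPKM in siNC and 2494 to 2705 FPKM in siMETTL3, most of it from Acta2 and Tagln. Those that fell were Acta2, Myh11, Tagln and Cnn1. Pdgfrb (limma adjusted p = 0.405), Rgs5 (0.837) and Kcnj8 (0.0609) did not pass, and Kcnj8 lay wholly higher in siMETTL3. Lymphocyte markers were near 0, with summed levels of 0.362 to 1.40 FPKM for 8 T and NK cell genes and 0.0498 to 0.455 FPKM for 5 B cell genes. No library held a count for Cd3e, Cd3d, Prf1 or Ms4a1. In cultures of several cell types, fewer cells of a type and less RNA per cell cannot be told apart.

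Promoter sequence is shown for 4 members whose levels differ widely: Tnf, the founding ligand, Tnfsf18, the ligand with the highest mean level, Tnfrsf12a, the receptor with the highest mean level, and Tnfrsf1a, a receptor that differed between the groups. Each window runs from 250 bases before to 50 bases after the annotated start in RefSeq on GRCr8, 5′ to 3′ along the gene. The windows are chr20:3626435-3626734 (plus strand), chr13:76366603-76366902 (plus strand), chr10:13213599-13213898 (minus strand) and chr4:159836869-159837168 (plus strand). Capitals mark TATAAA, the core of a TATA box, and GGGCGG, the core of a GC box, each on either strand.
Tnf: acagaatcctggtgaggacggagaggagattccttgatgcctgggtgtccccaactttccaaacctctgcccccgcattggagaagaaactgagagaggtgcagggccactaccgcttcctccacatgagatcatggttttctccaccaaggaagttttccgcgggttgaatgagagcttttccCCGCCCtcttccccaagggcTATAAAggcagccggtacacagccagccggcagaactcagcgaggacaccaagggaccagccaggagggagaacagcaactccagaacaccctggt
Tnfsf18: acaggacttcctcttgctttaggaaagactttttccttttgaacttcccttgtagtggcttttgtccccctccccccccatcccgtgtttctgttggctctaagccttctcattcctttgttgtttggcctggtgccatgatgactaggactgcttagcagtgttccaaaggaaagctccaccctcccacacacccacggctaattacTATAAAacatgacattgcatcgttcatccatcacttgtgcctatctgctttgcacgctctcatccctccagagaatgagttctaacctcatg
Tnfrsf12a: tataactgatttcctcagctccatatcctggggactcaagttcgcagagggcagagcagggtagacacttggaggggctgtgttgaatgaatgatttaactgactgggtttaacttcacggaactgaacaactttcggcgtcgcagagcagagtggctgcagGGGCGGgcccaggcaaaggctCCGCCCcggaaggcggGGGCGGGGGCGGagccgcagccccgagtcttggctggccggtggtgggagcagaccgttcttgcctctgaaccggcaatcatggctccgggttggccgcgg
Tnfrsf1a: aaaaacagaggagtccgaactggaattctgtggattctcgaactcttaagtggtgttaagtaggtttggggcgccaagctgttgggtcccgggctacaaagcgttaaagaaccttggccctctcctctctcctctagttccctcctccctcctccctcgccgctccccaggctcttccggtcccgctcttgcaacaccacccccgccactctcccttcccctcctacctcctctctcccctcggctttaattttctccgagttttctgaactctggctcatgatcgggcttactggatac

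The Tnf window holds TATAAA from 46 bases before the start and 1 GC box, and the Tnfsf18 window holds TATAAA from 42 bases before the start. The Tnfrsf12a window holds 4 GC boxes, from 88, 67, 51 and 45 bases before the start, and no TATAAA. The Tnfrsf1a window holds neither. Of the 29 members 22 had a promoter entry, 9 ligands and 13 receptors. TATAAA occurred in 4 of the 9 ligand windows (Tnf, Tnfsf11, Tnfsf15 and Tnfsf18) and 1 of the 13 receptor windows (Tnfrsf17), against 14.2% of all 33469 windows. GGGCGG occurred in 4 of 9 and 8 of 13, against 33.1%. An NF-kB-like string, GGGA and TTCC separated by any 2 bases, searched on both strands, occurred in 0 of the 22 and in 1.3% of all windows. These are matches of letters and not binding sites.

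Receptor transcripts dominated the family. Summed over all 29 members, the level was 243.7 to 294.4 FPKM per library, of which the 12 ligands together made 5.32% to 7.22%. Tnfrsf12a, which encodes Fn14, the receptor of the cytokine TWEAK, was the most abundant in every library, and Tnfrsf1a was the second. Tnfrsf11b, which encodes osteoprotegerin, the secreted decoy for RANKL and TRAIL, was the third, and Tnfrsf21, which encodes the death-domain receptor DR6, the fourth. That order held in all 6 libraries without overlap of the ranges. Tnfrsf12a made 57.9%, 59.5% and 54.0% of the summed FPKM in the siNC libraries, against 49.4%, 45.4% and 51.5% in the siMETTL3 libraries. Tnfrsf1a made 20.9% to 23.0% in siNC and 25.3% to 29.6% in siMETTL3. The shares of both did not overlap between the groups, and since shares of 1 sum depend on each other they were not tested. The next 5, Tnfsf18, Tnfsf12, Tnfrsf9, Tnfrsf1b and Tnf, had means of 3.42 to 5.21 FPKM, and the ranges of neighbours in that order overlapped.

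**Figure D1:**
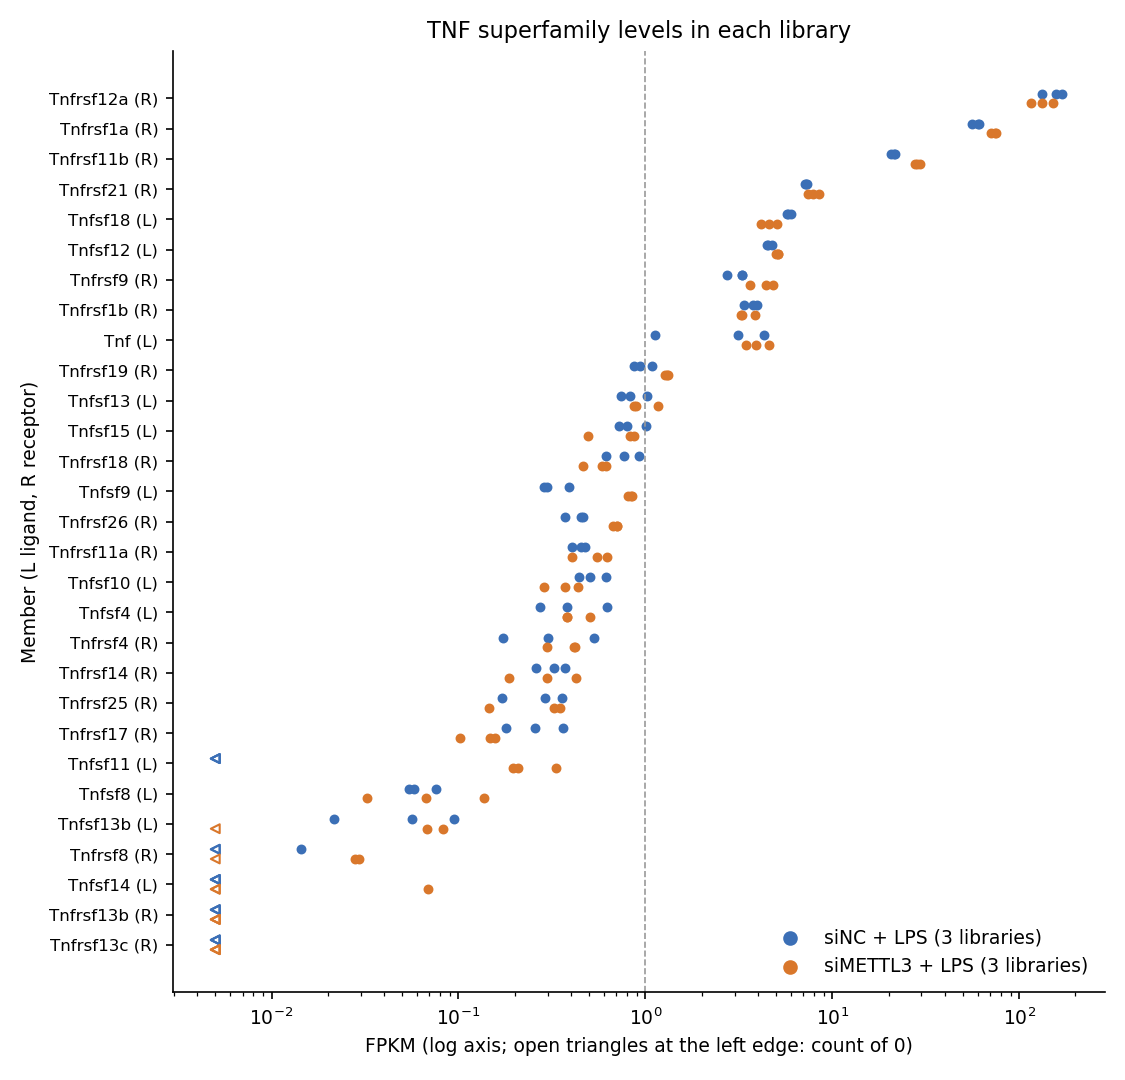
FPKM of the 29 members in each library on a log axis, ordered by mean, with siNC libraries in blue and siMETTL3 libraries in orange, 3 points each. Open triangles at the left edge are counts of 0, and the dashed line is 1 FPKM, the mean above which members were tested. The 10 members with a mean above it run from Tnfrsf19 at 1.13 to Tnfrsf12a at 143 FPKM.

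Between the groups 10 of the 29 members were compared, the 3 ligands and 7 receptors whose mean across libraries reached 1 FPKM. The threshold fell between Tnfrsf19, with a mean of 1.13 FPKM, and Tnfsf13, with 0.919 FPKM. The comparison asks which members differ with Mettl3 knockdown under LPS. It used limma on log2(FPKM + 1) over all 13105 genes with that mean, and a member was called at a Benjamini-Hochberg adjusted p under 0.05. Of the 10 members 2 rose, Tnfrsf1a and Tnfrsf11b, and 0 fell. Over all tested genes 10.9% were called, 6.53% higher and 4.4% lower. By edgeR on the deposited counts the same 2 rose and 1, Tnfsf18, fell, where 9.98% of all genes were called, 3.39% higher and 6.59% lower. The median log2 fold change of the 10 was 0.18, against 0.07 over all genes tested. Tnfrsf19 reached the minimum only through its siMETTL3 libraries (siNC mean 0.965 FPKM), and the median of the other 9 was 0.12. The libraries of 6 members lay wholly higher and those of 1 wholly lower in siMETTL3, or 5 higher of the 9 without Tnfrsf19. Over all tested genes the groups did not overlap for 37.9%, higher for 26.4% and lower for 11.5%.

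Tnfrsf1a, the death-domain receptor through which soluble TNF signals, was higher in siMETTL3 cells. It measured 60.6, 59.9 and 56.0 FPKM in siNC replicates 1, 2 and 3 and 70.4, 75.2 and 74.5 FPKM in siMETTL3 replicates 1, 2 and 3. The siMETTL3 libraries all lay above the siNC libraries. The means were 58.8 ± 2.49 and 73.4 ± 2.57 FPKM (SD, n = 3), so the siMETTL3 mean was 125% of the siNC mean. On the log2(FPKM + 1) scale the difference was 0.31 (SE 0.0543, limma adjusted p = 0.0211), with a 95% interval of 0.19 to 0.44. By edgeR it was 0.24 (adjusted p = 0.0336, and 0.0508 without a filter on low genes). The call was lost without siNC replicate 1 (limma adjusted p = 0.0756), siNC replicate 2 (0.0578), siMETTL3 replicate 1 (0.0654), siMETTL3 replicate 2 (0.0561) or siMETTL3 replicate 3 (0.0616), with the log2 fold change at 0.30 to 0.34. The table places the gene (ENSRNOG00000031312, protein-coding) on the plus strand of chromosome 4, from 157864969 to 157877633, in a build it does not name.

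Tnfrsf11b had the smallest adjusted p of the family. It measured 21.8, 20.7 and 21.5 FPKM in siNC and 28.3, 27.6 and 29.5 FPKM in siMETTL3, in the order of replicates. All siMETTL3 libraries were higher, and within each group the spread was small. The means were 21.3 ± 0.552 and 28.5 ± 0.938 FPKM (SD, n = 3), or 134% of siNC. The difference on the log2(FPKM + 1) scale was 0.40 (SE 0.0509, limma adjusted p = 0.00859), with a 95% interval of 0.28 to 0.52, and edgeR gave 0.34 (adjusted p = 0.0107). Leaving out siMETTL3 replicate 1 ended the limma call (adjusted p = 0.0519), and the other 5 fits with 1 library left out kept it. The table gives the gene (ENSRNOG00000008336, minus strand) as chr7:93798545-93826665. Summed fibroblast markers were lower in siMETTL3, at 906.9 to 965.0 FPKM against 1485 to 1555 FPKM in siNC. Most of that sum was Col1a1, at 719.8 to 779.4 FPKM in siMETTL3 and 1183 to 1216 FPKM in siNC. Pdgfra (limma adjusted p = 0.0743), Dcn (0.126) and Tcf21 (0.123) did not pass, though each lay wholly lower in siMETTL3. Of 4 endothelial markers tested, Cdh5 (log2 fold change 0.51) and Tek (0.36) rose and Egfl7 (-0.45) fell. With 1 library left out, 1 rose without siNC replicate 3 or siMETTL3 replicate 3, and otherwise 0 rose and 0 fell. The 7 endothelial markers found summed to 15.4 to 17.8 FPKM in siNC and 17.7 to 19.1 FPKM in siMETTL3. The part of these cell types in the Tnfrsf1a and Tnfrsf11b levels was not tested.

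**Figure D2:**
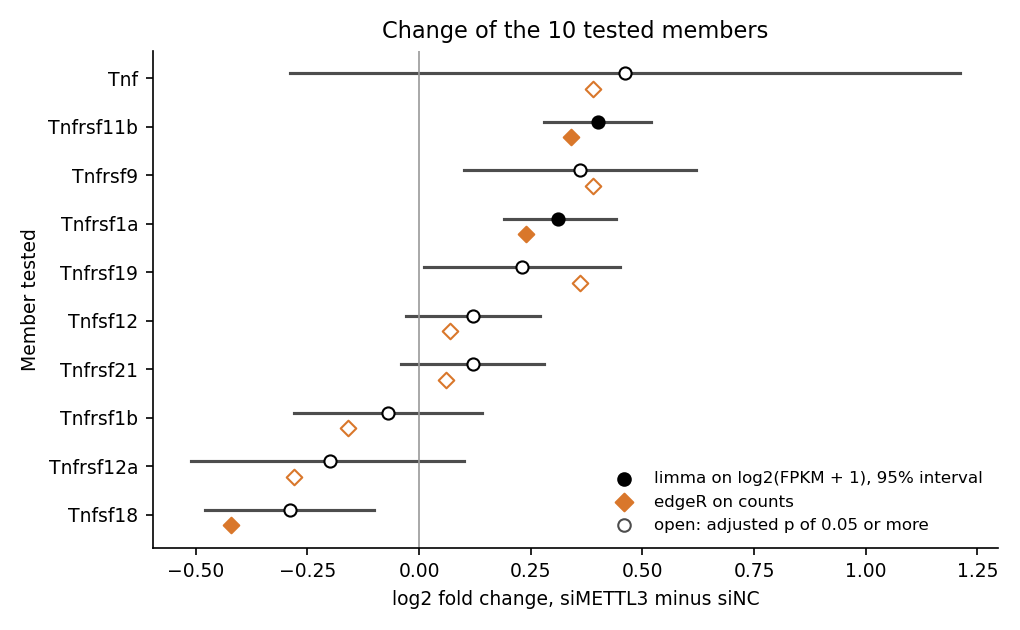
Log2 fold change, siMETTL3 minus siNC, of the 10 tested members. Circles with bars are limma estimates on log2(FPKM + 1) with 95% intervals, diamonds are edgeR estimates on counts, and filled symbols have an adjusted p under 0.05. Tnfrsf11b and Tnfrsf1a are filled in both, Tnfsf18 by edgeR alone, and the widest interval is that of Tnf, from -0.29 to 1.21.

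Among the 3 ligands tested, Tnf varied most between replicates. It measured 1.13, 3.14 and 4.34 FPKM in siNC and 3.90, 3.46 and 4.58 FPKM in siMETTL3, so the siMETTL3 libraries lay within or just above the siNC range. The counts behind the siNC values were 151, 408 and 536. The log2 fold change of 0.46 did not pass (limma adjusted p = 0.359), with a 95% interval of -0.29 to 1.21. Without siNC replicate 1 it was 0.08 (adjusted p = 0.783) and without siNC replicate 3 it was 0.74 (adjusted p = 0.135). The summed macrophage markers were lower in siMETTL3, at 36.5 to 47.8 FPKM against 70.8 to 87.0 FPKM, and their part in the Tnf level was not tested. Of those 9 markers Cd163, Ptprc and Itgam had means under 1 FPKM. Tnf (ENSRNOG00000000837, plus strand of chromosome 20, 4855829 to 4858447) overlaps the annotated spans of RT1-CE7, RT1-CE4 and RT1-CE1 on the opposite strand. Those 3 genes measured 5.23 to 26.4 FPKM, and no source used here states whether counting used strand.

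Tnfsf18, which encodes the ligand of the T cell co-stimulatory receptor GITR, was the most abundant ligand by mean over the 6 libraries (ENSRNOG00000026607, chr13:79378733-79388498, plus strand). It exceeded Tnfsf12 in each siNC library, but Tnfsf12 exceeded it in each siMETTL3 library. The levels of Tnfsf18 were 5.99, 5.80 and 5.69 FPKM in siNC and 4.59, 4.14 and 5.06 FPKM in siMETTL3, all lower, at 78.8% of the siNC mean. By limma it did not pass (log2 fold change -0.29, SE 0.0805, adjusted p = 0.0632). By edgeR the log2 fold change was -0.42 (adjusted p = 0.0453), and it also passed by DESeq2 (0.00443, where 18.3% of all genes were called) and, in limma, after median-ratio scaling (0.0433) or quantile normalization (0.0475). It did not pass by edgeR without a filter (0.071) or by limma with any 1 of the 6 libraries left out (0.0705 to 0.174). Its neighbour Tnfsf4, which encodes OX40 ligand, lies on the same strand of chromosome 13 at a distance of 85.0 kb and had a mean of 0.423 FPKM. The receptor gene Tnfrsf18 measured 0.462 to 0.919 FPKM in the 6 libraries, so the ligand was 6.31 to 9.93 times the level of its receptor.

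Tnfsf12 (ENSRNOG00000045670, chr10:56290780-56300077, minus strand), which encodes TWEAK, measured 4.51, 4.77 and 4.49 FPKM in siNC and 4.97, 5.14 and 5.13 FPKM in siMETTL3. The groups did not overlap, but the difference of 0.12 on the log2 scale did not pass (limma adjusted p = 0.235, 95% interval -0.03 to 0.27). The gene lies 827 bases from Tnfsf13, which encodes APRIL and had a mean of 0.919 FPKM, on the same strand of chromosome 10. Tnfrsf12a (ENSRNOG00000003546, chr10:12995904-12997930, minus strand), the receptor of TWEAK, measured 158, 170.3 and 132 FPKM in siNC and 132, 115 and 152 FPKM in siMETTL3. These ranges overlapped (log2 fold change -0.20, limma adjusted p = 0.311, 95% interval -0.51 to 0.10). Tnfrsf12a was 22.4 to 35.7 times the level of Tnfsf12 in each library. Tnfrsf12a exceeded Tnfrsf1a by 2.35 to 2.85 times in siNC and 1.53 to 2.03 times in siMETTL3, ranges that do not overlap. That ratio was not tested.

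**Figure D3:**
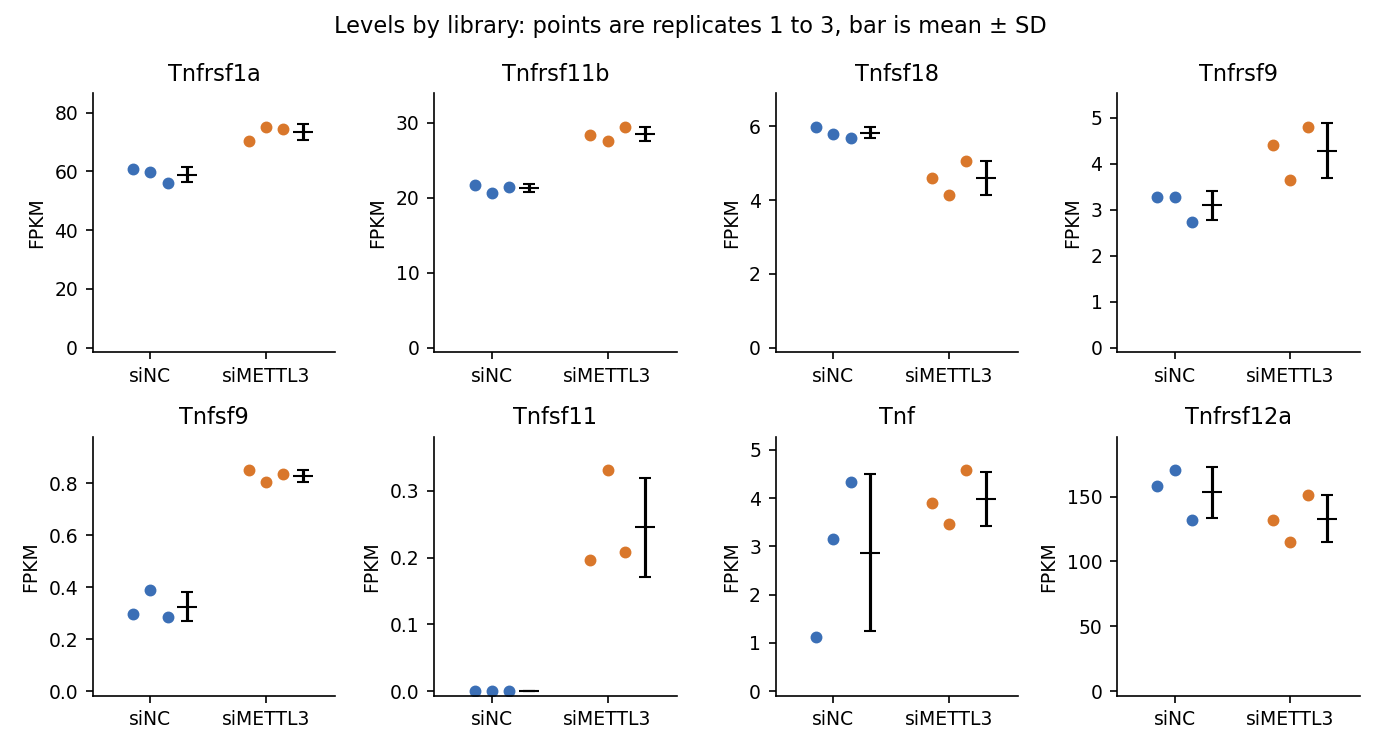
FPKM by library for 8 members, with siNC in blue, siMETTL3 in orange, points for replicates 1, 2 and 3 from left to right, and the mean ± SD beside them. Axes start at 0. Tnfrsf1a, Tnfrsf11b, Tnfrsf9 and Tnfsf9 lie wholly higher in siMETTL3, Tnfsf18 lies wholly lower, Tnfsf11 stands at 0 in siNC, and the groups overlap for Tnf and Tnfrsf12a.

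Tnfrsf1b (ENSRNOG00000016575, chr5:163136390-163167299, minus strand), the other TNF receptor, did not pass the test. It measured 3.75, 3.94 and 3.36 FPKM in siNC and 3.85, 3.25 and 3.29 FPKM in siMETTL3, with overlapping groups. Its log2 fold change was -0.07 (limma adjusted p = 0.622), with a 95% interval of -0.28 to 0.14. The ratio of Tnfrsf1a to Tnfrsf1b was 16.2, 15.2 and 16.6 in siNC and 18.3, 23.2 and 22.6 in siMETTL3. Every siMETTL3 ratio was above every siNC ratio, and the ratio was not tested.

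Tnfrsf9 (ENSRNOG00000036942, chr5:168009393-168035810, plus strand), which encodes the co-stimulatory receptor 4-1BB, measured 3.28, 3.27 and 2.73 FPKM in siNC and 4.41, 3.64 and 4.81 FPKM in siMETTL3. All siMETTL3 libraries were higher, but the log2 fold change of 0.36 (95% interval 0.10 to 0.62) did not pass after adjustment (limma adjusted p = 0.0752, edgeR adjusted p = 0.132). Tnfrsf19 (ENSRNOG00000014265, chr15:41246308-41338284, minus strand), which encodes the orphan receptor TROY, measured 0.940, 1.08 and 0.874 FPKM in siNC and 1.27, 1.32 and 1.31 FPKM in siMETTL3 (log2 fold change 0.23, limma adjusted p = 0.144). Its groups did not overlap either. Tnfrsf21 (ENSRNOG00000011517, chr9:20546159-20621051, minus strand) measured 7.25, 7.13 and 7.30 FPKM in siNC and 7.45, 8.53 and 7.87 FPKM in siMETTL3 (log2 fold change 0.12, limma adjusted p = 0.26). For Tnfrsf21 and Tnfsf12 the log2 fold change was 0.06 with median-ratio scaling, which moved the median of all tested genes from 0.067 to 0.00584.

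The remaining 19 members, 9 ligands and 10 receptors, had means under 1 FPKM. Of these, 13 had means of at least 0.1 FPKM, 4 had lower means with some counts, and Tnfrsf13b and Tnfrsf13c, which encode TACI and BAFF-R, receptors of BAFF on B cells, had no count in any library. A count of 0 allows up to 3 counts in a library, for counting error only. The deposited counts stand in a nearly constant ratio to FPKM, and whether they are reads or values derived from coverage is not given in the sources used here. That floor, and the edgeR and DESeq2 values, take them as reads. The 4 with lower means were Tnfsf8, the ligand of CD30, at 0.0323 to 0.137 FPKM, Tnfsf13b, which encodes BAFF, at up to 0.0951 FPKM, Tnfrsf8, which encodes CD30, at up to 0.0295 FPKM, and Tnfsf14, which encodes LIGHT, with 4 counts in siMETTL3 replicate 1 and 0 elsewhere. Among the 19 the groups did not overlap for 6, 3 higher and 3 lower in siMETTL3. Over all 8167 genes with counts and a mean under 1 FPKM, 10.8% did not overlap, 6.02% higher and 4.82% lower. That share leaves out genes without counts, such as Tnfrsf13b and Tnfrsf13c, and takes in every gene with any count. The 6 of 19 are therefore not strictly comparable with it.

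Tnfsf9 (ENSRNOG00000045595, chr9:9909948-9912276, minus strand), which encodes the ligand of 4-1BB, had the largest ratio between groups among members with counts in all 6 libraries. Its counts were 31, 40 and 28 in siNC and 85, 81 and 81 in siMETTL3, which is 0.298, 0.390 and 0.287 FPKM against 0.850, 0.804 and 0.833 FPKM. The siMETTL3 mean was 255% of the siNC mean, and the groups lay far apart relative to their spread. With the mean required for testing lowered to 0.1 FPKM, where 7.01% of all genes were called and 4.03% were called higher, Tnfsf9 rose (log2 fold change 0.47, limma adjusted p = 0.0208). edgeR without a filter gave 1.25 (adjusted p = 0.0419), and 4.61% of genes were called there, 1.45% higher. The limma call was lost whichever 1 of the 6 libraries was left out, with adjusted p of 0.0543 to 0.0904 and a log2 fold change of 0.45 to 0.50. Those fits were chosen after seeing the data. The ratio of Tnfrsf9 to Tnfsf9 was 8.40 to 11.0 in siNC and 4.53 to 5.77 in siMETTL3. Tnfsf9 was singled out for its difference between groups, so that ratio in part restates it and was not tested.

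Tnfsf11, which encodes RANKL, the ligand that osteoprotegerin binds, had 0 counts in siNC replicates 1, 2 and 3 and 15, 25 and 15 counts in siMETTL3 (ENSRNOG00000049547, chr15:60482527-60512704, minus strand). Relative to total counts the siMETTL3 mean was 6.14 times the siNC floor of 3 counts per library. The siMETTL3 counts carry error of their own, so this is not a lower bound. Of 21272 genes with any count, 2 (0.0094%) had 0 counts in every siNC library and at least 15 in every siMETTL3 library. The reverse held for 3, or 0.0141%. The cutoff of 15 is the lowest siMETTL3 count of Tnfsf11, which is 1 of the 2 genes. That share therefore cannot serve as a measure of how rare the pattern is. Tnfsf11 reached a mean of 0.1 FPKM only through its siMETTL3 libraries, so a difference there follows in part from the filter. The limma adjusted p was 0.0523 with the mean lowered to 0.1 FPKM. Without a filter it was 0.0295 by limma (4.25% of genes called) and 0.042 by edgeR. Those fits still took only genes with a count in some library, and Tnfsf11 had counts in siMETTL3 alone. These values are therefore not free of that selection either. At the lower mean, with 1 library left out, the limma adjusted p was 0.0995 to 0.142. At 0.196, 0.331 and 0.209 FPKM, RANKL stayed far under its decoy Tnfrsf11b. Tnfrsf11a, which encodes RANK, measured 0.404 to 0.626 FPKM with overlapping groups.

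Tnfrsf26, a receptor gene, measured 0.461, 0.372 and 0.451 FPKM in siNC and 0.708, 0.709 and 0.670 FPKM in siMETTL3. Its groups did not overlap, and it did not pass at the lower mean (limma adjusted p = 0.083). The 3 members wholly lower in siMETTL3 by FPKM were Tnfrsf18, Tnfsf10 and Tnfrsf17. For Tnfrsf18 the nearest libraries stood at 0.6154 FPKM (siMETTL3 replicate 3, 56 counts) and 0.6164 FPKM (siNC replicate 3, 55 counts). The counts of Tnfrsf18 thus overlapped, and it did not pass at the lower mean (limma adjusted p = 0.262). Tnfsf10, which encodes the death ligand TRAIL, measured 0.506, 0.440 and 0.618 FPKM in siNC and 0.436, 0.286 and 0.371 FPKM in siMETTL3 (limma adjusted p = 0.28 at the lower mean). Tnfrsf17, which encodes BCMA, rested on 8 to 26 counts per library. A signalling receptor of TRAIL was not analysed here.

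The other members under 1 FPKM overlapped between the groups. They were Tnfsf13 (0.741 to 1.17 FPKM), Tnfsf15, which encodes TL1A (0.494 to 1.004 FPKM), its receptor Tnfrsf25 (0.145 to 0.360 FPKM), Tnfsf4 (0.272 to 0.623 FPKM), its receptor Tnfrsf4 (0.173 to 0.530 FPKM) and Tnfrsf14, the receptor of LIGHT (0.187 to 0.428 FPKM). In each of the 6 libraries Tnfsf18 exceeded its receptor Tnfrsf18, Tnfsf15 exceeded Tnfrsf25 and Tnfsf8 exceeded Tnfrsf8. Receptor exceeded ligand in each library for Tnfrsf12a and Tnfsf12, Tnfrsf9 and Tnfsf9, Tnfrsf11a and Tnfsf11, and Tnfrsf14 and Tnfsf14. Tnfsf4 exceeded Tnfrsf4 in 4 of the 6.

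The superfamily genes with other symbols were added from a list of 16, of which 14 were found and 6 tested, with 0 called by limma. Ltbr, the lymphotoxin beta receptor, was the most abundant, at 34.5, 38.5 and 35.6 FPKM in siNC and 41.1, 39.5 and 41.6 FPKM in siMETTL3 (log2 fold change 0.17, adjusted p = 0.105). Fas, the death receptor of FasL, measured 15.2 ± 0.865 and 14.96 ± 0.352 FPKM (SD, n = 3, limma adjusted p = 0.841). Cd40, a co-stimulatory receptor, measured 11.0, 10.8 and 9.84 FPKM in siNC and 8.73, 7.74 and 8.93 FPKM in siMETTL3. All its siMETTL3 libraries were lower, and it passed by edgeR (log2 fold change -0.39, adjusted p = 0.0477) but not by limma (-0.28, adjusted p = 0.0572).

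Genes that process the ligands, act downstream of the receptors or are named for induction by TNF were taken from 6 further lists. Of 68 tested genes in the 7 lists, the one above included, 1 rose and 3 fell by limma, and 1 rose and 6 fell by edgeR, against 10.9% and 9.98% of all genes called. The lists' median log2 fold changes ran from -0.26, for genes named for induction by TNF, to 0.18, for ligand shedding, against 0.07 over all genes. Furin, a proprotein convertase that cleaves among others TWEAK, APRIL and BAFF, rose from 57.6 ± 1.52 to 79.4 ± 9.94 FPKM (SD, n = 3, log2 fold change 0.45, limma adjusted p = 0.0279). It was 1 of 8 genes of ligand shedding and processing, and Adam17, the TNF-converting enzyme, was among the other 7. Mapk8, the kinase JNK1, fell from 9.47 ± 0.340 to 7.29 ± 0.387 FPKM (-0.34, adjusted p = 0.0255), as 1 of 12 kinases. Tnfaip2, a gene named for its induction by TNF, fell from 45.4 ± 1.97 to 36.8 ± 3.04 FPKM (-0.30, adjusted p = 0.0454), as 1 of 6.

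Of 16 receptor adaptors and ubiquitin ligases, among them Tradd, Ripk1 and Traf2, 0 passed by limma or edgeR. The same held for 12 feedback inhibitors, among them the deubiquitinase Tnfaip3 at 20.9 ± 2.08 and 20.1 ± 1.48 FPKM (SD, n = 3, limma adjusted p = 0.71). By DESeq2, where 18.3% of all genes were called, 1 of the 16 and 2 of the 12 fell and 0 rose. The calls of Furin, Mapk8 and Tnfaip2 were each lost in some fits with 1 library left out. Furin kept its call only without siMETTL3 replicate 2 (0.0267), Mapk8 only without siMETTL3 replicate 2 (0.0475), and Tnfaip2 in none of the 6, where adjusted p was 0.0555 to 0.146. For Furin adjusted p otherwise reached 0.0527 to 0.0979, and for Mapk8 0.0571 to 0.0914.

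**Figure D4:**
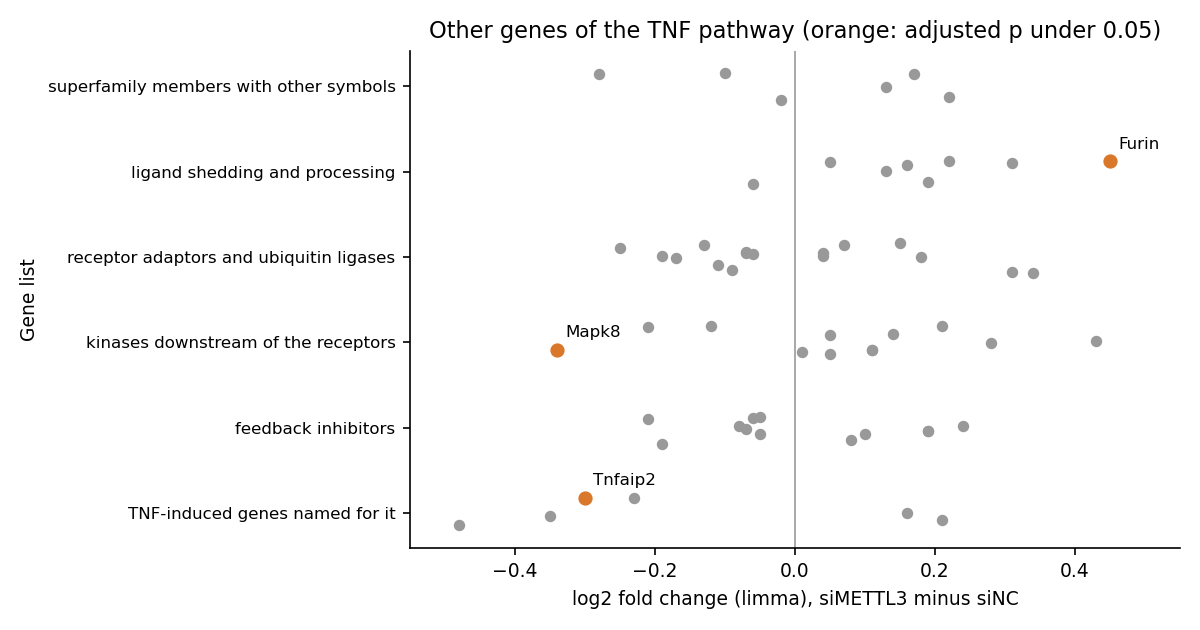
Log2 fold change by limma, siMETTL3 minus siNC, of 60 tested genes in 6 lists of the TNF pathway, 1 point a gene, spread vertically for visibility. Orange points have an adjusted p under 0.05: Furin is higher, and Mapk8 and Tnfaip2 are lower.

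**Figure D5:**
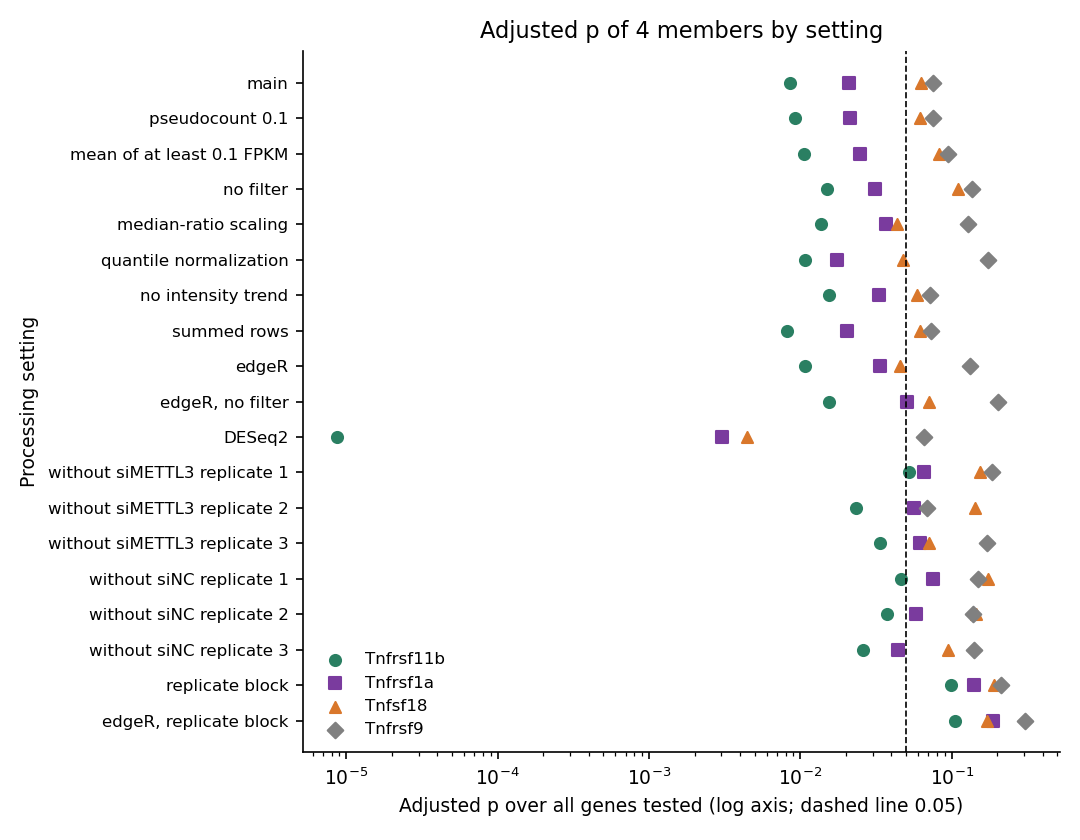
Adjusted p over all genes tested, on a log axis, of 4 members under each processing setting, with the dashed line at 0.05 and the fit reported above at the top. Tnfrsf11b lies left of the line except without siMETTL3 replicate 1 and with a replicate block, while Tnfrsf9 lies right of it throughout.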

How the data were processed

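RNA was measured by paired-end sequencing in 6 libraries, 3 per group. Per the file headers, the authors deposited FPKM and counts for each gene. FPKM stands at 1e-04 exactly where the count is 0, and such values are printed as 0. Over the 14527 genes that reached 20 counts in each library, 98.7% of counts lay within 1% of a constant ratio to FPKM after scaling by library, so the 2 measures are not independent and the counts may derive from coverage. Bowtie 0.12.2 and mm8, a mouse build, appear in the submitters' processing notes with no role given. The aligner, quantifier, build and annotation behind the rat table are not given in the sources used here.

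Genes averaging 1 FPKM or more were tested on log2(FPKM + 1), over the whole table, with limma 3.58.1 (intensity trend, 2-sided) in R 4.3.3 and a Benjamini-Hochberg threshold of 0.05. edgeR 4.0.16 (quasi-likelihood, trimmed-mean scaling) and DESeq2 1.42.0 on counts were alternatives. Other alternatives were the pseudocount, the filter, the scaling, the trend, the threshold, summed rows, a replicate block and leaving out each library. Tests were checked on simulated data with larger changes than those of Tnfrsf1a and Tnfrsf11b, so recovery of changes as small as theirs was not checked. The members and lists were chosen with earlier results of these data known. The naming rule was every member, and of each list the genes past the threshold. Cd40, Ltbr, Fas, Tnfaip3, Adam17, Tradd, Ripk1, Traf2, Cdh5, Tek and Egfl7 were named after their values were seen. The same holds for Acta2, Myh11, Tagln, Cnn1, Pdgfrb, Rgs5, Kcnj8, Col1a1, Pdgfra, Dcn and Tcf21. Promoter sequences are from RefSeq (GRCr8), matched by symbol. Tnfrsf11a, Tnfrsf11b, Tnfrsf14, Tnfrsf18, Tnfsf12, Tnfsf4 and Tnfsf9 had no entry. No set test was run. A further gene past the threshold and a marker gene are counted but not reported here.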

Additional observations from a re-analysis of the deposited data

How the results depend on the processing

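Of 204 values of single members under the alternatives, 181 kept their direction and side of the threshold. Another 17 kept their direction but were no longer past it, 6 passed newly and 0 reversed. All 17 were values of Tnfrsf1a, Tnfrsf11b and Tnfsf9, the members past the threshold in their reported fit. Most of the 181 were values of members not past it there, so the 181 do not measure how stable the calls are. The number of members past the threshold was 2 of 10 as reported. It was 4 of 27 without a filter, where 4.25% of all genes were called. Those 4 include Tnfsf11, which entered that fit only through its siMETTL3 counts. The number of members was 4 of 10 at a threshold of 0.1, and 0 to 2 with 1 library left out. With the replicate number as a block it was 0 by limma and 0 by edgeR. Whether the numbers pair the cultures could not be decided. The correlation of same-numbered deviations from the group means was 0.0346, -0.255 and -0.119. With 3 libraries per group the deviations are bound to each other, so these values cannot exclude pairing. Of the 68 other pathway genes tested 4 passed as reported, where 10.9% of all genes were called. By edgeR 7 passed (9.98% of all genes) and by DESeq2 15 (18.3% of all genes). At a threshold of 0.1, 15 passed, and the share of all genes there is not given here. With the block 0 passed by limma and 0 by edgeR, and with 1 library left out 0 to 3 passed. Fewer libraries lower the power by construction. Members under 1 FPKM rested on at most 174 counts per library, which limits the precision, and adding 1 to FPKM compresses their fold changes.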
